A study of Mus musculus with 16 samples.

Results

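Heat shock proteins and their DnaJ cochaperones were followed across 4 groups of mouse uterus arrays. The members are the genes whose symbol falls in the Hspa, Hspb, Hspd1, Hspe1, Hsph1 or Dnaja, Dnajb and Dnajc families. The gene table holds 85 such symbols, of which 68 had a probe on the array (116 probes in all), and 17 had none, 16 of them pseudogenes. Of the 68 members, 64 were tested, among 24651 genes and unnamed targets tested in all. The other 4 were Hspa5 and Dnajb12, each with an outlier spot on 1 array, Dnajb7, which was above background on no array, and Hspb3, above background on 3 arrays. Roles were set by symbol. The 68 comprise 11 HSP70 genes, 3 HSP110 exchange factors, 2 subunits of the mitochondrial chaperonin and 8 small heat shock proteins (every Hspb symbol). The rest are 4, 12 and 28 J-domain genes of classes A, B and C.

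HSP70 proteins bind unfolded stretches of other proteins and release them in a cycle driven by ATP. J-domain (DnaJ) proteins bring clients to HSP70 and start its ATP hydrolysis, and exchange factors such as the HSP110 proteins eject ADP so that the client is released. The chaperonin of Hspd1 and Hspe1 folds proteins inside mitochondria, small heat shock proteins hold damaged proteins without ATP, and HSP90 takes over many HSP70 clients, the glucocorticoid receptor among them. Without hormone that receptor is kept ready for ligand by HSP70, HSP90 and their cochaperones. Many of the cytosolic genes are switched on by heat shock factor HSF1, and the endoplasmic reticulum members by the unfolded protein response.

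RNA of the entire uterus was hybridised to 16 Agilent arrays of 1 colour, 4 per group. SalV mice received 20 µl corn oil on postnatal days 1 to 5 (the labels name this treatment saline, the design text corn oil) and 100 µl saline as adults. SalD mice had the same neonatal carrier and 1 mg/kg dexamethasone, a synthetic glucocorticoid, as adults. Genistein, an isoflavone of soy with affinity for estrogen receptors, was given at 50 mg/kg to the GenV and GenD mice on those neonatal days, followed by saline or 1 mg/kg dexamethasone respectively. All 4 groups had adrenals and ovaries removed at 6 weeks, were injected at 8 weeks and gave tissue 4 h later. The glands that make ovarian hormones and corticosterone were thus absent from 6 weeks on, but present on the neonatal days. The series title poses the question as whether early genistein changes glucocorticoid signalling in the adult uterus. Neither strain nor individual animals are named in the sources used here. The p-values thus cover array-to-array spread alone, which may be technical, and the number of arrays limits the precision.

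A level is the log2 signal of a gene's brightest probe relative to the 75th percentile of its array, so level 0 is that percentile. That percentile lay between 948 and 2719 intensity units, and the share of spots well above background between 68.9 and 81.3%. The percentile was 2719, 1987, 2507 and 2615 on SalD arrays 1 to 4, and at most 2029 on the other arrays. Correlations between arrays of 1 group ran from 0.963 to 0.988. The 4 SalD arrays stood apart from all others on the first principal component (29.7% of variance), and SalV array 1 stood apart from the rest of its group. The SalD arrays enter both the comparison with SalV and that with GenD. All 12 uterus markers were measured. Of these, 2 were higher in SalD than in SalV, 3 were higher in GenD than in GenV, and 1 was lower in GenD than in SalD. Of 10 adipocyte markers 7 were higher in SalD than in SalV, and their summed linear level ran from 3.62 to 28.6 on the SalV arrays, 16.4 to 240 on SalD, 22.9 to 78.6 on GenV and 12.2 to 83.6 on GenD. Of 11 smooth muscle markers 3 were lower in SalD, with sums of 227 to 359 on SalV, 103 to 212 on SalD, 157 to 268 on GenV and 133 to 293 on GenD. Neutrophil markers were lower with dexamethasone in both arms (5 and 6 of 6), 4 of 8 lymphocyte markers were lower in SalD than in SalV, and 4 were higher in GenD than in SalD. Skeletal muscle markers held 2 falls of 12 in SalD against SalV and 3 rises in GenD against SalD. Ciliated, macrophage and immediate early genes held at most 3 calls each in any of these comparisons. Over all genes, 8.45% were called higher and 14.6% lower in SalD against SalV. The shares were 2.49% and 2.80% in GenD against GenV, and 16.5% and 6.39% in GenD against SalD. The skeletal muscle falls in SalD (16.7%) lay near the share of all genes.

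Promoter windows from RefSeq on GRCm38.p6 (250 bases before the start to 50 after it) were found for 56 of the 68 members, giving 71 windows. The heat shock element was searched on both strands as 2 facing units, GAANNTTC or TTCNNGAA, and as 3 alternating units, which contain the former. The first form occurred in 18 of the 71 windows (25.4%, 16 genes), against 15.1% of all 32851 windows of the same length. The 3-unit form occurred in 6 windows (8.45%) of 4 genes, Hspd1, Hspe1, Hsph1 and Dnajb6, against 0.603% of all windows. The glucocorticoid response palindrome ACANNNTGT occurred in 2.82% of member windows (Hspa1l and Hspb3) against 6.85% of all. The ER stress element, CCAAT and CCACG with 9 bases between them, occurred in 2.82% (Hspa5 and Dnajc3) against 0.119%. A match describes the letters only and shows no binding.

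The stretches below that hold a heat shock element run up to the base before the RefSeq start, with every 2-unit element in capitals. All stretches are printed 5′ to 3′ in the direction of the gene. Hspe1 and Hspd1 are transcribed away from each other, with 215 bases between the Hspe1 start and 1 of the RefSeq starts of Hspd1, and the overlapping elements before Hspe1 lie before both of these starts. They are shown because Hspe1 passed the test in dexamethasone-treated controls and its partner did not. The Hspe1 stretch is chr1:55088038-55088147 (plus strand), that of Hsph1 chr5:149636337-149636396 (minus strand) and that of Dnajb6 chr5:29735828-29735897 (plus strand). The 3-unit element of Hsph1 lies after its start and is not printed.
Hspe1: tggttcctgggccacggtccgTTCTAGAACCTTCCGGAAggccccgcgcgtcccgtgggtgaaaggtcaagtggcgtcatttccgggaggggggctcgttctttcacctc
Hsph1: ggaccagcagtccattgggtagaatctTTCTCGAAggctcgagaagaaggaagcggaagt
Dnajb6: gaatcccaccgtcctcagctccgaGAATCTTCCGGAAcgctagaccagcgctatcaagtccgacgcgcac

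The stress-inducible HSP70 genes Hspa1a and Hspa1b have promoters that share 296 of 300 bases, and 119 of the 120 printed. They are shown because both carry a 2-unit heat shock element in the same place. They lie at chr17:34972157-34972276 (minus strand) and chr17:34959239-34959358 (minus strand).
Hspa1a: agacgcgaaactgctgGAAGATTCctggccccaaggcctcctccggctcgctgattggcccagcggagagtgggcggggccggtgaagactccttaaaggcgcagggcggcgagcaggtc
Hspa1b: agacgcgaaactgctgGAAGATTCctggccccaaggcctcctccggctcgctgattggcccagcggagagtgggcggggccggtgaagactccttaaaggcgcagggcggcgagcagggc

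The ER chaperone gene Hspa5 (BiP) and the ER cochaperone gene Dnajc3 each hold 1 ER stress element, in capitals, at chr2:34772000-34772059 (plus strand) and chr14:118937802-118937861 (plus strand). Unlike the stretches above, they end at bases -31 (Hspa5) and -71 (Dnajc3) relative to the RefSeq start. They are shown as the members found to hold this element, beside the values of Hspa5 and of the unfolded protein response list that follow.
Hspa5: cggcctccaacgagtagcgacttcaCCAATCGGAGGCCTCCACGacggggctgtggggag
Dnajc3: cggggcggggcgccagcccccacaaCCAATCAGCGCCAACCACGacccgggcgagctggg

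In control mice given dexamethasone (SalD against SalV), the HSP110 exchange factors Hspa4 and Hsph1, the mitochondrial chaperones Hspa9, Hspe1 and Dnaja3 and the J-domain gene Dnajc21 were among those that rose. The J-domain genes Dnajc5g, Dnajb13 and Dnajc4 were among those that fell. Of 64 members, 20 passed limma's test at an adjusted p below 0.05, 13 higher and 7 lower. That is 31.2%, against a background of 23.0% of all genes called in this comparison, 8.45% higher and 14.6% lower. The median log2 difference was 0.13 over the members and -0.16 over all genes. The split depended on the scaling: quantile normalization gave 10 higher and 4 lower, and scaling each array to its median gave 21 and 2, while the all-gene median moved to -0.04 and 0.07. Over all called genes the higher share was 36.7% in the main scaling, 47.3% and 64.8% in those. With slide as a block 12 members were called, and with normexp background 10. Each of the 20 kept its sign within all 3 slides that hold both groups. These slide differences reuse the same arrays, and their sign is fixed where the groups do not overlap. They are thus no separate support. The slide block ended 10 of the 20 calls, those of Hsph1, Hspa9, Hspa14, Hspe1, Hspb6, Dnajb6, Dnajb9, Dnajc11, Dnajc13 and Dnajc18. Normexp background ended 12, those of Hsph1, Hspa9, Hspa14, Dnajb2, Dnajb4, Dnajb8, Dnajb9, Dnajb13, Dnajc4, Dnajc5g, Dnajc11 and Dnajc18. The count fell to 9 without SalV array 1 or SalD array 4, to 10 without SalD array 1 or 3, and to 13 without SalV array 2. In whole tissue, fewer cells of a type and less RNA per cell cannot be told apart. Without SalD arrays 2 and 3, which had the highest adipocyte sums, 10 members were called. The calls over all genes fell as well in that run, from 5669 to 3585, with SalD arrays 1 and 4 alone left. The part of the adipocyte, smooth muscle, neutrophil and lymphocyte markers in the result was not tested. The 44 members not called ranged from -1.07 (Hspb9) to 0.69 (Dnajc25).

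**Figure D1:**
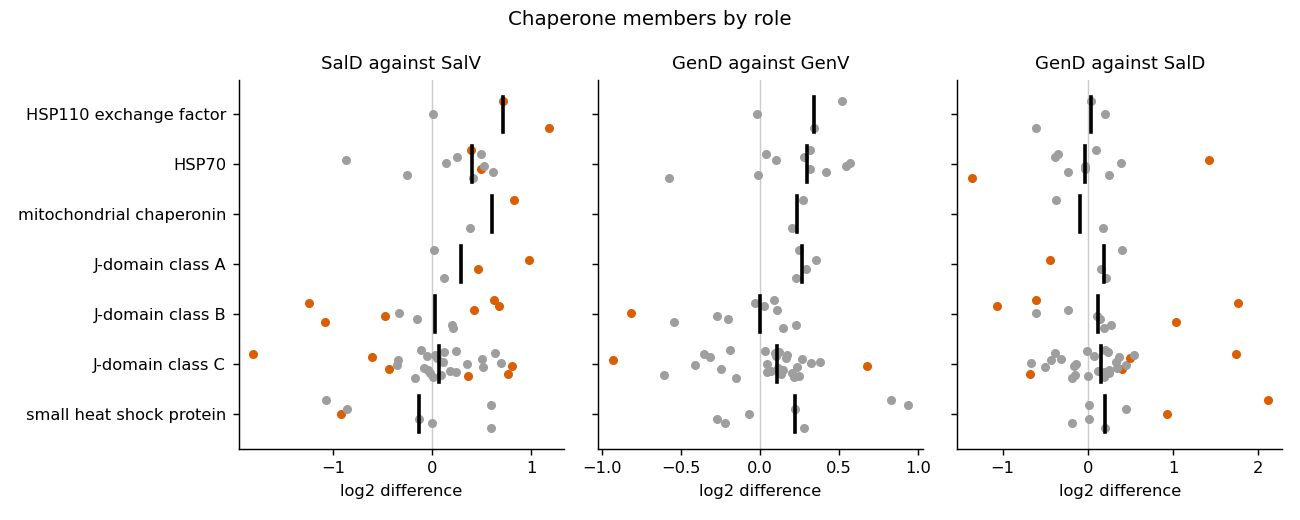
Each point is 1 tested member placed by its log2 difference (horizontal axis) and role (vertical axis), with called members in orange, the others in grey and the role's median as a black bar. In SalD against SalV both HSP110 calls, both HSP70 calls and the chaperonin call lie to the right of 0, while calls in J-domain classes B and C lie on both sides; in GenD against GenV 3 members are called.

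Of the 3 HSP110 exchange factors 2 rose, a share of 66.7% against 23.0% of all genes called and 8.45% called higher. In the brightest of 5 equal signal classes, which holds both, 12% of all genes were called higher. Hspa4 (Apg-2), an HSP110 exchange factor of the cytosol, measured 0.89, 1.59, 1.35 and 1.77 on SalV arrays 1 to 4 and 2.61, 2.15, 2.70 and 2.87 on the SalD arrays. The lowest SalD array lay above the highest SalV array. It rose by a log2 difference of 1.18 (SE 0.22, limma adjusted p = 0.00301), kept its call under each alternative tried, and ran from 0.93 to 1.61 within slides. A second, dimmer Hspa4 probe gave 0.20 (adjusted p = 0.496), so the probes disagreed. Hsph1 (HSP105) measured 1.54, 1.26, 1.74 and 1.81 in SalV and 2.08, 1.83, 2.33 and 2.98 in SalD. Those groups did not overlap, although the gap between SalV array 4 and SalD array 2 was small. Hsph1 rose by 0.72 (SE 0.23, limma adjusted p = 0.0364), a call lost with slide as a block and without SalD array 3 or 4 or SalV array 1 or 2 (adjusted p up to 0.107). The third member, Hspa4l, did not pass at 0.01 (SE 0.25), while its other probe was called higher at 0.97.

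Among 10 tested HSP70 genes 2 rose and none fell, with a median difference of 0.40. That is 20%, against 23.0% of all genes called, 8.45% called higher, and 12% called higher in the brightest signal class. Quantile normalization also gave 2 rises, and the median scaling gave 5 with a median of 0.63. Hspa9 (mortalin), the mitochondrial HSP70, measured 3.75, 3.67, 3.90 and 3.96 in SalV and 4.38, 4.22, 4.05 and 4.19 in SalD. Every SalD array exceeded every SalV array, and the rise was 0.39 (SE 0.12, limma adjusted p = 0.0299). It was lost with slide as a block, after quantile normalization and without SalD array 1, 2 or 4 or SalV array 1 or 2 (adjusted p up to 0.0844), and its second probe gave 0.13. Hspa14, a ribosome-associated HSP70, rose by 0.49 (SE 0.16, adjusted p = 0.0354) from 3.02 ± 0.16 to 3.52 ± 0.14 (SD, n = 4 each). This call was lost with slide as a block and without SalD array 1, 3 or 4 or SalV array 1 or 2.

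The classical cytosolic HSP70 genes did not pass the test in the main scaling. Hspa8 (HSC70), the constitutive HSP70, measured 5.34, 5.46, 5.56 and 5.71 in SalV and 5.65, 5.84, 6.32 and 6.22 in SalD. The lowest SalD array lay below the highest SalV array, and the difference was 0.49 (SE 0.19, limma adjusted p = 0.0691). It passed after quantile normalization at 0.58 and with the median scaling at 0.72. Hspa1a, the stress-inducible HSP70, measured 2.02, 1.85, 2.28 and 2.17 in SalV and 2.71, 2.58, 2.27 and 2.88 in SalD, with only SalD array 3 inside the SalV range. Its difference was 0.52 (SE 0.20, adjusted p = 0.0701), and it passed with the median scaling at 0.75. Its near copy Hspa1b gave 0.14 (SE 0.19, adjusted p = 0.632). The pair is known to be nearly identical in sequence, so both values are uncertain.

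The ER chaperone Hspa5 had no test because of an outlier spot on GenD array 1. It measured 4.05, 3.96, 4.15 and 4.06 in SalV, 4.17, 4.12, 4.33 and 4.68 in SalD and 4.06, 3.58, 4.74 and 4.49 in GenV. The 3 remaining GenD arrays gave 3.76, 4.16 and 4.28. The SalV values lay close together and the SalD range overlapped them. Dnajb12, a tail-anchored ER J-domain protein without a test, averaged -1.75 ± 0.24 in SalV, -2.28 ± 0.23 in SalD, -1.72 ± 0.17 in GenV (SD, n = 4 each) and -1.72 ± 0.23 in GenD (n = 3). The 6 tested genes of the fixed ER list held 1 call (16.7%, against 23.0% of all genes), Dnajb9. This ER J-domain protein (ERdj4) measured 0.67, 0.91, 0.84 and 1.37 in SalV and 1.56, 1.71, 1.58 and 1.42 in SalD. SalV array 4 came closest to the SalD arrays without reaching them. Dnajb9 rose by 0.62 (SE 0.19, limma adjusted p = 0.0309), and its other 2 probes were called at 0.42 and 0.41. The call on the brightest probe was lost with slide as a block and without SalD array 1, 2 or 3 or SalV array 1, 2 or 3 (adjusted p up to 0.0992). Hspa13, a microsomal HSP70, gave 0.61 on its brightest probe (adjusted p = 0.0554) and -0.81, called, on another, so it has no settled direction.

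Of the 7 members on a fixed mitochondrial list 4 rose, with a median of 0.38. That is 57.1%, against 23.0% of all genes called, 8.45% called higher, and 12% called higher in the brightest signal class. The list may not hold every mitochondrial member. With slide as a block the calls of Hspe1, Hspa9 and Dnajc11 were lost and that of Dnaja3 was kept. Hspe1 (HSP10), the lid of the chaperonin, measured 3.06, 3.44, 3.34 and 3.83 in SalV and 3.93, 4.11, 4.31 and 4.63 in SalD, without overlap. It rose by 0.83 (SE 0.23, limma adjusted p = 0.0187), which was lost without SalD array 4 or SalV array 1 (adjusted p up to 0.0663). Its partner Hspd1 (HSP60), whose start lies beyond the promoter stretch printed above, measured 4.35, 4.07, 4.55 and 4.22 in SalV and 4.52, 4.39, 4.81 and 5.01 in SalD. These ranges overlapped and the difference of 0.38 (SE 0.18, adjusted p = 0.125) did not pass. Whether the partners differed from each other was not tested. Dnaja3 (Tid1), the mitochondrial class A cochaperone, measured 1.5, 1.53, 1.66 and 1.67 in SalV and 2.58, 2.27, 2.77 and 2.64 in SalD. The SalV arrays lay within a narrow band well below SalD. Its rise of 0.98 (SE 0.14, limma adjusted p = 0.000689) kept its call under each alternative tried, with 0.96 to 1.10 within slides, but a dimmer second probe gave 0.10 (adjusted p = 0.815). Dnajc11, a mitochondrial J-domain protein named after its values were seen, rose by 0.36 (SE 0.11) and lost its call without SalD array 1 or 4 or SalV array 2 or 3.

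**Figure D2:**
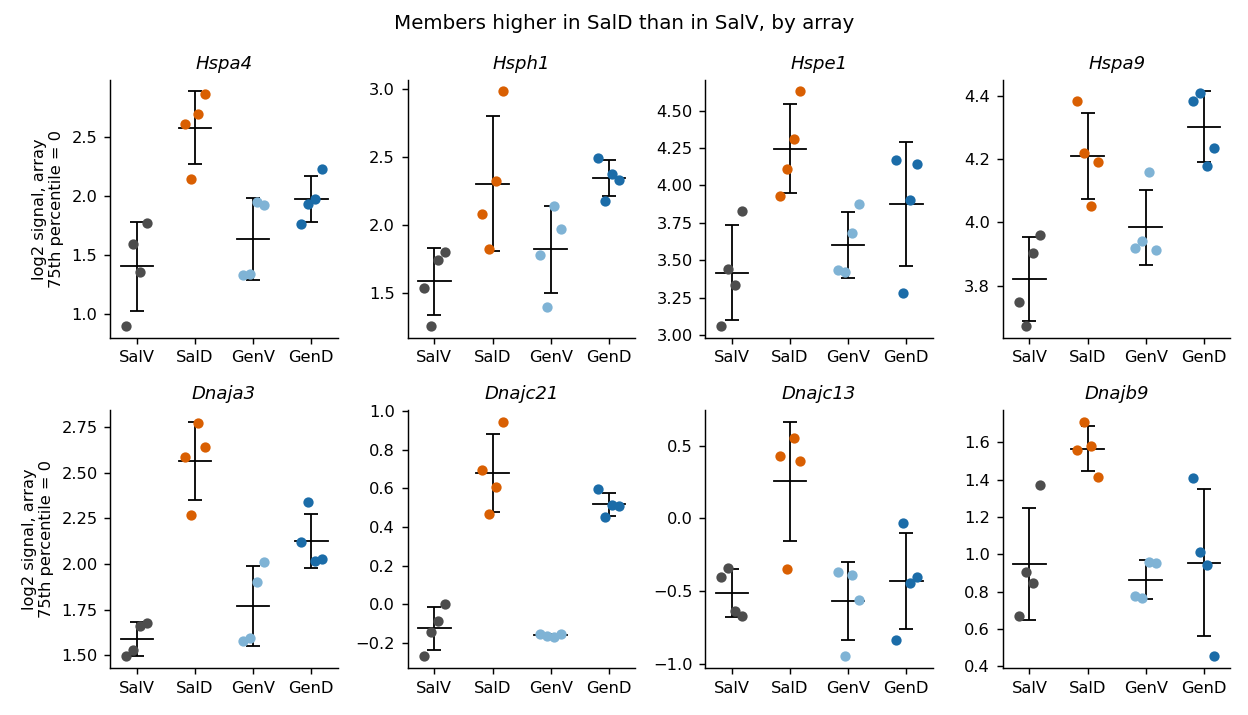
Each panel shows 1 member, with the log2 level relative to the array's 75th percentile on the vertical axis (the scale differs between panels) and the 4 groups on the horizontal axis; points are arrays, the bar is the mean and the whisker 1 SD (n = 4). In 7 of the 8 panels each SalD point lies above every SalV point; in the panel of Dnajc13 SalD array 2 at -0.35 does not.

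Cytosolic and nuclear J-domain genes rose and fell. Dnajc21, a J-domain protein that takes part in ribosome assembly, measured -0.27, -0.14, -0.08 and 0.00 in SalV and 0.70, 0.47, 0.61 and 0.95 in SalD. All SalD arrays were above all SalV arrays. It rose by 0.80 (SE 0.12, limma adjusted p = 0.000616), the smallest adjusted p of any member, and the call held under each alternative tried. Dnajc13 (RME-8), an endosomal J-domain protein, rose by 0.77 (SE 0.22, adjusted p = 0.0225) with 3 SalD arrays above SalV and array 2 inside its range. That call was lost with slide as a block and without SalD array 1, 3 or 4 (adjusted p up to 0.0654).

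Dnajb6, which keeps aggregation-prone proteins soluble, measured 1.88, 2.95, 2.23 and 2.90 in SalV and 3.03, 3.19, 3.33 and 3.13 in SalD. The SalV arrays were widely spread and the highest of them nearly reached SalD. It rose by 0.68 (SE 0.23, limma adjusted p = 0.0478), with 0.08 to 1.28 within slides. Slide as a block, and leaving out any of 11 single arrays, ended that call (adjusted p up to 0.153), while its other probes were called at 0.76 and 0.41. Dnaja2, a class A partner of HSC70, rose by 0.46 (SE 0.14) and lost its call without SalD array 1, 3 or 4 or SalV array 2. Dnajb4, also named after its values were seen, rose by 0.42 (SE 0.12) and lost its call without SalD array 1 or SalV array 1. The main heat-inducible partners Dnajb1 and Dnaja1 did not pass, at 0.21 (SE 0.15, adjusted p = 0.31) and 0.12 (SE 0.18, adjusted p = 0.66).

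The falls were mostly in dim genes. The 75th percentile subtracted from each array was highest on SalD arrays 1, 3 and 4. Its part in the falls of dim members was not tested. Dnajc5g, a relative of the cysteine string protein, measured -5.10, -5.40, -5.66 and -6.08 in SalV and -7.97, -6.51, -6.88 and -8.09 in SalD, where 1 of 4 arrays was above background. The groups did not overlap. It fell by 1.80 (SE 0.42, limma adjusted p = 0.00871), and its second probe was called at -1.5. Dnajb13, an axonemal J-domain protein of cilia and sperm tails, measured -4.91, -5.18, -5.93 and -5.73 in SalV and -6.42, -6.19, -6.40 and -7.07 in SalD, again without overlap. It fell by 1.08 (SE 0.27, adjusted p = 0.0128). Both calls held without any single array and were lost with normexp background, and quantile normalization also ended that of Dnajb13. Dnajb8 was above background on 2 SalV arrays and on no SalD array, so its fold is only approximate. With SalD signals raised to the lowest signal well above background, SalV was 1.77-fold higher. The SalV mean includes arrays not above background, so this is no strict bound. Without that floor Dnajb8 was called lower (limma adjusted p = 0.0366). That call was lost without SalD array 1, 3 or 4 or SalV array 1 or 2 (adjusted p up to 0.12). These 3 members belong to the dimmest of 5 equal signal classes. In that class 2.43% of all genes were called higher and 15.2% lower, with a median of -0.53, against 12% and 9.90% and a median of 0.02 in the brightest. The brightest class held 31 members, of which 9 rose and 2 fell.

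Brighter members also fell. Dnajc4 measured 1.91, 1.69, 2.15 and 1.63 in SalV and 1.11, 1.62, 1.17 and 1.07 in SalD. SalD array 2 at 1.62 lay just under the lowest SalV array. The fall was 0.60 (log2 difference -0.60, SE 0.14, limma adjusted p = 0.0102), which held without any single array. Dnajb2, a cochaperone that sorts clients to the proteasome, fell by 0.48 (SE 0.13, adjusted p = 0.0199), lost without SalD array 3 or SalV array 1. Dnajc18 fell by 0.44 (SE 0.13, adjusted p = 0.0312), lost with slide as a block and without SalD array 1, 3 or 4 or SalV array 1 or 3, and its dimmer second probe gave 0.18. The median scaling ended the calls of Dnajc4, Dnajb2 and Dnajc18.

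Among 7 tested small heat shock proteins, counted by their Hspb symbol alone and so with Hspb11 included, only Hspb6 was called (14.3%, against 23.0% of all genes). This protein (HSP20), known in smooth muscle relaxation, measured -2.75, -3.38, -2.92 and -3.08 in SalV and -3.77, -2.87, -4.54 and -4.62 in SalD. SalD array 2 lay inside the SalV range and the other 3 arrays below it. Hspb6 fell by 0.92 (SE 0.30, limma adjusted p = 0.042), a call lost without any of 9 single arrays (adjusted p up to 0.131) with slide as a block and with the quantile and the median scaling. In the same comparison 3 of 11 smooth muscle markers fell (27.3%, against 14.6% of all genes called lower), and their part in this value was not tested. Hspb1 (HSP27) gave 0.59 (SE 0.26, adjusted p = 0.114) and Hspb8, the partner of Bag3 in selective autophagy, 0.59 (SE 0.26, adjusted p = 0.112). The median over the family was -0.13 in the main scaling, -0.11 after quantile normalization and 0.09 after median scaling, so its sign flipped. Of the 10 members fixed as heat-inducible, 2 rose and none fell (Hsph1 and Hspe1), a share of 20% against 23.0% of all genes called. Their median was 0.44, and 10 of 10 differences were positive, against 39.5% of all genes in this scaling. That share is lowered by dim genes, while most of these members are in the brightest signal class. The all-gene median in that class was 0.02.

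**Figure D3:**
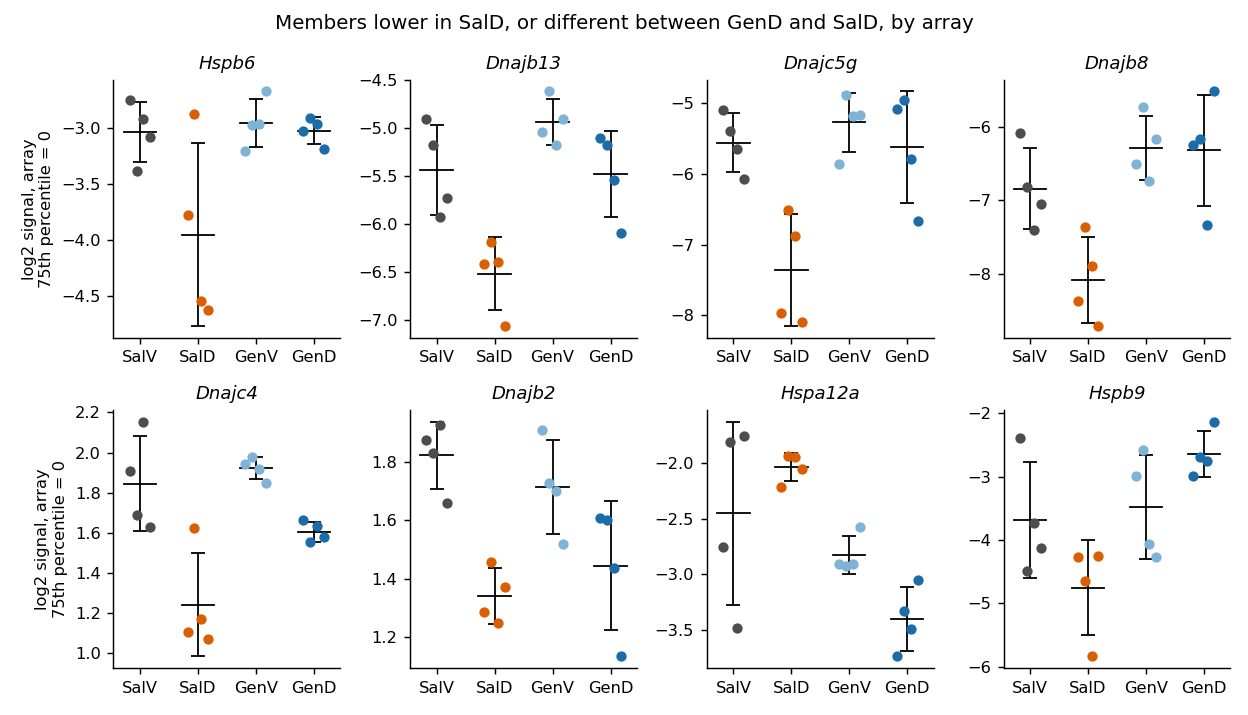
Each panel shows 1 member, with the log2 level relative to the array's 75th percentile on the vertical axis (the scale differs between panels) and the 4 groups on the horizontal axis; points are arrays, the bar is the mean and the whisker 1 SD (n = 4). SalD points lie lowest for Dnajb13, while Hspa12a is lowest in GenD and Hspb9 highest in GenD by mean.

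After neonatal genistein the same adult treatment (GenD against GenV) gave 3 calls in 64 members, 1 higher and 2 lower. That is 4.69%, against 5.29% of all genes called in this comparison, 2.49% higher and 2.80% lower. Dnajc21 measured -0.16, -0.16, -0.17 and -0.15 in GenV and 0.60, 0.45, 0.51 and 0.51 in GenD. The arrays of each group lay close together and far from the other group. It rose by 0.68 (SE 0.12, limma adjusted p = 0.00332), under each alternative tried, and was the member called in both arms. Dnajc28 measured -0.85, -0.94, -0.73 and -0.24 in GenV and -1.47, -1.71, -1.85 and -1.45 in GenD. The groups did not overlap, and it fell by 0.93 (SE 0.20, adjusted p = 0.0133). Its other 2 probes gave -0.87 and -0.57 and did not pass, and slide as a block ended the call. Dnajb3 fell by 0.81 (SE 0.22, adjusted p = 0.0485), but leaving out any of 13 single arrays ended its call (adjusted p up to 0.148). Array weights raised the count of called members to 24, and slide as a block or normexp background lowered it to 1.

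Several members that had risen in SalD did not pass in the genistein arm. Hspa4 measured 1.32, 1.33, 1.95 and 1.92 in GenV and 1.76, 1.93, 1.97 and 2.23 in GenD, and the groups overlapped. Hsph1 measured 1.78, 1.40, 2.14 and 1.97 in GenV and 2.49, 2.18, 2.38 and 2.33 in GenD, where every GenD array exceeded every GenV array. Dnaja3 measured 1.58, 1.59, 1.90 and 2.01 in GenV and 2.12, 2.34, 2.02 and 2.03 in GenD, again without overlap but only narrowly. The log2 differences were 0.34 (SE 0.22), 0.52 (SE 0.23) and 0.36 (SE 0.14), with limma adjusted p of 0.481, 0.239 and 0.194.

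Dnajb9 measured 0.78, 0.77, 0.96 and 0.95 in GenV and 1.41, 1.01, 0.94 and 0.45 in GenD. The GenD arrays lay on both sides of the GenV range, and the difference was 0.09 (SE 0.19, limma adjusted p = 0.88). Hspe1 measured 3.43, 3.42, 3.68 and 3.88 in GenV and 4.17, 3.28, 3.90 and 4.14 in GenD, where array 2 was the lowest of all 8. Hspd1 gave 0.20 (SE 0.18, adjusted p = 0.625).

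Hspb8 measured 1.51, 1.38, 0.77 and 1.28 in GenV and 2.01, 2.30, 2.26 and 2.12 in GenD. The groups did not overlap, but the difference of 0.94 (SE 0.26, limma adjusted p = 0.051) missed the threshold. Hspa1a gave 0.55 (SE 0.20, adjusted p = 0.143), and Hspa1b 0.57 (SE 0.19, adjusted p = 0.106). The members' median was 0.13, against -0.01 over all genes, and the 61 members not called ranged from -0.61 (Dnajc12) to 0.94 (Hspb8). Adipocyte markers held no call in this arm.

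The dexamethasone effects of the arms rest on different arrays. All 20 members called in SalD against SalV had the same sign in GenD against GenV, as did 81.5% of the 5669 genes called there. All 20 were also smaller in the second arm, and 91.3% of those genes were smaller or opposite in sign there, having been chosen for their size in the first. No member passed the interaction, the test of the difference between the arms, where the background called was 0%. Its smallest adjusted p was 0.212 by limma, for Dnaja3 at -0.62 (SE 0.20), and 7 members had an unadjusted p below 0.05. No alternative tried called any member there. Interactions ran from -0.98 for Hspa12a to 1.90 (SE 0.69) for Hspb9, with -0.84 (SE 0.31) for Hspa4.

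**Figure D4:**
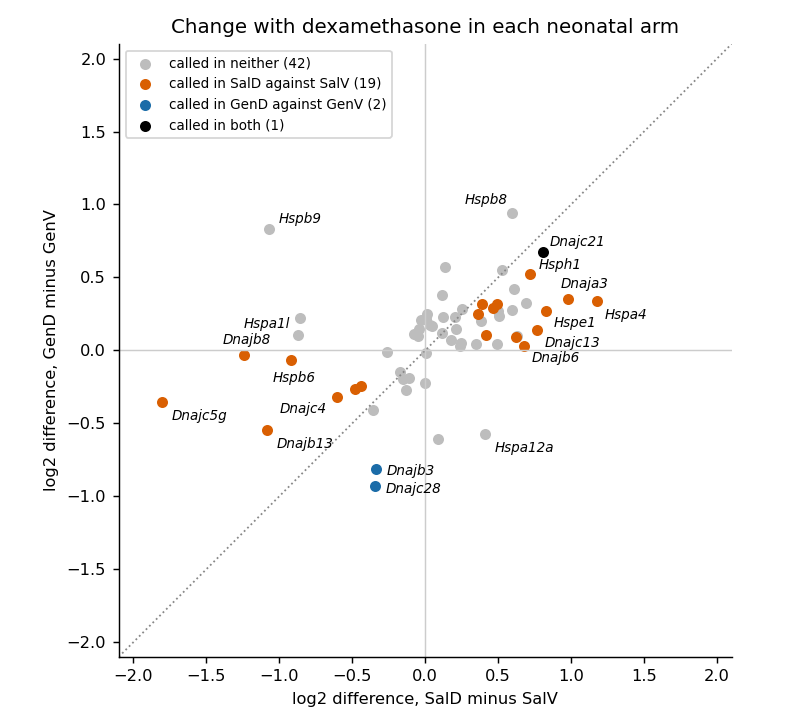
Each point is 1 of 64 tested members, with its log2 difference SalD minus SalV on the horizontal axis and GenD minus GenV on the vertical axis; colour gives where it was called and the dotted line marks equal differences. Of the points, 19 were called in controls alone, 2 after genistein alone and 1, Dnajc21, in both, and the called members of the first comparison lie on the side of the dotted line nearer to 0.

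Neonatal genistein by itself (GenV against SalV) left no member called, against a background of 0.00406% (1 gene). By limma 4 members had an unadjusted p below 0.05, and the smallest adjusted p was 0.344, for Dnajc12 at 0.54 (SE 0.17). The median was 0.15 over the members and 0.05 over all genes. Hspd1 gave 0.36 (SE 0.18) and Hspb1 0.51 (SE 0.26), neither of which passed. No alternative tried called any member in this comparison.

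Between the dexamethasone groups (GenD against SalD), 13 of 64 members were called, 8 higher and 5 lower in GenD. That is 20.3%, against 22.9% of all genes, 16.5% higher and 6.39% lower. This comparison shares the SalD arrays with the first, so members low in SalD enter both. Leaving out SalD array 1, 3 or 4 gave 8, 7 and 6 calls, and leaving out GenD array 3 or 4 gave 7. Normexp background gave 5 and array weights 26. Normexp ended 9 of the 13 calls, those of Dnaja3, Dnajb8, Dnajb9, Dnajb13, Dnajc5g, Dnajc13, Dnajc18, Dnajc30 and Hspa12a. Leaving out SalD arrays 2 and 3 ended 7, those of Dnaja3, Dnajb6, Dnajb9, Dnajc18, Dnajc30, Hspa12a and Hspb9. Slide as a block ended 5 of the 13 calls, those of Dnaja3, Dnajb13, Dnajc13, Dnajc18 and Hspb6. Each of the 13 kept its sign within both slides that hold both groups, which reuses the same arrays and is no separate support. With quantile normalization 5 were higher and 6 lower, and the median scaling gave the same split. The higher share of all called genes was 72.1%, 56.2% and 56.3% in these 3 scalings. In this comparison 4 of 8 lymphocyte and 3 of 12 skeletal muscle markers were higher in GenD (50% and 25%, against 16.5% of all genes). Their part in the result was not tested. The 51 members not called ranged from -0.67 (Dnajc25) to 0.54 (Dnajc5b).

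Dim members were prominent among the higher calls. Hspb9, a small heat shock protein known from testis, measured -4.27, -4.65, -5.84 and -4.25 in SalD and -2.98, -2.69, -2.75 and -2.13 in GenD. The groups did not overlap, and GenD was higher by 2.11 (SE 0.49, limma adjusted p = 0.0109). Hspa1l, a testis-expressed HSP70 next to Hspa1a in the genome, measured -4.39, -4.47, -4.87 and -5.65 in SalD and -3.87, -3.06, -3.81 and -2.92 in GenD. It was higher by 1.43 (SE 0.36, adjusted p = 0.0146), a call kept under each alternative tried. Dnajb8 was called higher in GenD (limma adjusted p = 0.00965), where 3 arrays were above background and in SalD none. With SalD raised to the lowest signal well above background GenD was 2.55-fold higher, again no strict bound. Dnajc5g at 1.73 (SE 0.42) and Dnajb13 at 1.04 (SE 0.27) were also called, the latter lost without SalD array 4. Calls of Hspb6 at 0.93, Dnajc30 at 0.50 and Dnajc18 at 0.41 were lost without any of 8, 10 and 9 single arrays. In the dimmest signal class 21.7% of all genes were called higher in GenD.

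The lower calls included members that had risen in SalD. Dnajb6 measured 3.03, 3.19, 3.33 and 3.13 in SalD and 2.53, 1.76, 2.01 and 2.09 in GenD, without overlap. It was lower by 1.07 (SE 0.23, limma adjusted p = 0.00834), with -1.27 to -1.23 within slides, and another of its probes was called at -0.53. Dnajc13 was lower by 0.68 (SE 0.22), Dnajb9 by 0.61 (SE 0.19) and Dnaja3 by 0.44 (SE 0.14), calls lost without any of 6, 7 and 6 single arrays. Dnaja3's dimmer probe went the other way at 0.54 (not called), and averaging the probes gave 0.052. Hspa12a, an atypical HSP70, measured -2.21, -1.94, -1.95 and -2.05 in SalD and -3.74, -3.33, -3.49 and -3.05 in GenD. It was lower by 1.36 (SE 0.30, adjusted p = 0.00949). Its other probes gave -0.23 and -0.14 here, and both were called lower in SalD than in SalV (-0.98 and -1.03) where the brightest gave 0.41.

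The HSF and HSP90 list held 21 tested genes, of which 3 rose and 2 fell in SalD against SalV, with a median of -0.06. That is 23.8%, near the 23.0% of all genes called. Fkbp5, an HSP90 cochaperone that dampens the glucocorticoid receptor, measured -3.84, -4.45, -2.56 and -2.67 in SalV and 1.25, 1.45, 0.86 and 0.69 in SalD. It rose by 4.44 (SE 0.38, limma adjusted p = 1.58e-05) and by 4.56 (SE 0.38) in GenD against GenV. Hsf1, the main activator of heat-shock genes, measured 1.80, 1.60, 2.18 and 1.86 in SalV and 1.26, 1.40, 1.08 and 1.30 in SalD. Each SalD array lay under each SalV array. Hsf1 fell by 0.60 (SE 0.16, adjusted p = 0.0161) and its difference in the genistein arm was -0.001 (SE 0.16, adjusted p = 0.998), with an interaction of 0.60 (SE 0.22, adjusted p = 0.243). GenD was above SalD by 0.63 (SE 0.16, adjusted p = 0.0143). The other calls in controls were Aarsd1 at 0.77, Hsf5 at 0.94 and Hsf4 at -0.85. Hsp90aa1 and Hsp90ab1 gave 0.19 (SE 0.14) and -0.21 (SE 0.19) and did not pass.

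Exchange factors and other chaperones held 3 rises and no fall among 26 genes in controls (median 0.17), a share of 11.5% against 23.0% of all genes. Bag3, an exchange factor that links HSP70 to Hspb8, measured 2.68, 2.91, 2.62 and 3.30 in SalV and 3.65, 3.94, 3.60 and 3.58 in SalD. It rose by 0.82 (SE 0.16, limma adjusted p = 0.00407) and by 0.64 (SE 0.16, adjusted p = 0.0343) in the genistein arm, where Bag2 rose by 0.62. Hyou1, the ER exchange factor of BiP, rose by 0.85 (SE 0.26) and Gak, a J-domain kinase of clathrin uncoating, by 0.51 (SE 0.12), both in controls. Between the dexamethasone groups 2 of the 26 were higher in GenD, Bag6 at 0.55 and Hspbp1 at 0.53, and Gak was lower at -0.38. Those 3 calls are 11.5%, against 22.9% of all genes. In the HSF and HSP90 list the HSP90 activator Ahsa1 was higher by 0.59.

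Of 26 unfolded protein response genes 2 rose and 3 fell in controls, with a median of 0.10. That is 19.2%, below the 23.0% of all genes called. The translation-stress factor Atf4 rose by 0.64 (SE 0.18) and by 0.81 (SE 0.18) after genistein, and its target Chac1 by 1.05 (SE 0.35) and 1.71 (SE 0.35). Ddit3 (CHOP), another target of that branch, measured 0.98, 1.05, 0.75 and 0.66 in SalV and -0.09, -0.22, -0.39 and -0.10 in SalD. It fell by 1.06 (SE 0.17, limma adjusted p = 0.0011). Derl3, which helps export misfolded proteins from the ER, fell by 1.5 (SE 0.22) and 1.06 (SE 0.22), and the ER stress sensor Ern1 fell by 0.76 (SE 0.23) in controls. Members of 1 list thus moved in both directions. Herpud1 was lower at -0.62 and Xbp1 higher at 0.59 in GenD against SalD.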

How the data were processed

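Agilent scanner files of 16 arrays were read. Per the file headers (Feature Extraction 12.0.0.7; the submitters' processing notes name 9.5), the deposited values are linear intensity, background-subtracted and not normalized between arrays, beside flags of 0 or 1. The authors' deposited series table held the same intensity (largest difference 0). The files give accessions, matched here to RefSeq symbols (28223 of 29245 RefSeq probes, GRCm38.p6). Levels are log2 signal minus the array's 75th percentile. Outlier spots were set to missing, 807 incomplete probes were dropped, and 32598 probes stayed that 4 or more of 16 arrays measured well above background, the brightest per gene being used.

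Means of the 4 groups were estimated together over the 16 arrays in limma 3.58.1 (R 4.3.3), two-sided, with Benjamini-Hochberg adjustment over 24651 genes and a threshold of 0.05, and each adjusted p in the text comes from limma. Where a group has no array above background, the fold sets the bright group's mean against the lowest signal well above background. That mean may include arrays not above background, so the fold is approximate. The test was checked on simulated data. Named members are, per comparison, the up to 10 largest called rises and falls and 14 preset genes, with up to 4 called genes of each pathway list. Members outside this rule, such as the ends of a range, were named after their values were seen. The members, lists, tests and array exclusions were chosen with earlier results of these data known. Alternatives covered scaling, background, filters, probes, blocks, weights and left-out arrays. Replicate numbers were not treated as pairs. The planned normexp run used median spot signal, as these files lack the mean. Figures used matplotlib in Python.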

Additional observations from a re-analysis of the deposited data

Results flagged for a closer look

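In 5 of 131 groups of 4 arrays examined among the named members, 1 array lay far from the other 3 by Dixon's 95% criterion for 4 values. Chance alone marks about 1 group in 20. Dnajc18 was at 0.35 on GenD array 2, with the nearest array at 0.73. Hspa14 was at 2.99 on GenD array 2, with the nearest at 3.61. Hspb1 was at 4.26 on GenD array 1, with the nearest at 4.58. Hspa9 was at 4.16 on GenV array 3, with the nearest at 3.94. Hspa12a was at -2.57 on GenV array 4, with the nearest at -2.91. All are log2 levels relative to the array's 75th percentile.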

How the results depend on the processing

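Members called in SalD against SalV numbered 20, and 10 with normexp background, 12 with slide as a fixed block and 10 without SalD arrays 2 and 3. In GenD against GenV there were 3, and 1 with normexp, the slide block or without GenV arrays 3 and 4, 5 with a filter on all 16 arrays or a variance trend, and 24 with array weights. In GenD against SalD there were 13, and 5 with normexp, 7 from only the arrays compared, 6 without SalD arrays 2 and 3, and 26 with array weights. Leaving out 1 array gave 9 to 22, 2 to 4 and 6 to 14 calls. The cause was not tested. The interaction and GenV against SalV called 0 members throughout; an interaction needs all groups, so it had no run on only the arrays compared. Over all genes, normexp gave 3326, 370 and 3297 calls, and array weights gave 11033 in GenD against SalD, 6065 in GenD against GenV and 96 in the interaction. Without SalD arrays 2 and 3 all genes gave 3585 calls in SalD against SalV and 2394 in GenD against SalD.

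Members called in the main run kept direction and call in 466 of 597 runs in SalD against SalV, 65 of 90 in GenD against GenV and 296 of 387 in GenD against SalD. The 1 reversal was Dnaja3 in GenD against SalD, at 0.052 with the mean of its probes, which includes a dimmer probe of opposite sign. Replicate numbers share no stated source and were not treated as pairs, since no comparison had all 4 same-numbered correlations over 0.1 (range -0.13 to 0.36). GenD against SalD had 3 of 4 over 0.1 and 3 of 4 best with their own number, a hint from the data only; the other dexamethasone comparisons had 1 of 4 best. A replicate block gave 19, 3 and 11 calls; it ended those of Dnajb6, Dnajb9 and Hspb6 in SalD against SalV and of Dnajb9, Dnajc13, Dnajc18, Dnajc30 and Hspb6 in GenD against SalD. Small log2 differences in members not above background are limited by signal.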
